A study of Mus musculus with 6 samples.

Results

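The genes described here are 35 markers of the immune cells of the liver, out of 55450 genes in a table of estimated read counts from 6 mouse livers. They were chosen by name from what is known of each cell type, at a time when earlier results of these data were known. All 35 had a row in the table. They fall into 8 classes: 8 genes of Kupffer cell identity, 5 genes shared by macrophages including the C1q chains, 4 pan-leukocyte and adaptor genes, 4 monocyte and myeloid genes, 4 MHC class II genes, 6 T and NK cell genes, 2 B cell genes and 2 neutrophil genes. In the comparison of all 6 libraries 34 of them passed the filter on low counts. Cd8a did not, with 2 to 11 counts per library.

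The study compared 3 mice with floxed LKB1 alleles (LKB1 fl/fl, labelled LKB1 knock out and called KO below) with 3 wild-type mice (WT, genotype labelled normal). LKB1, gene symbol Stk11, is a kinase that switches on AMPK and related kinases. Both groups are labelled strain C57BL/J and received AAV8 Cre, an adeno-associated virus carrying the Cre recombinase, at 6 weeks of age, so the controls carry the virus too. The left liver lobe came from mice labelled 10 weeks old, and poly(A) RNA was sequenced with 1 library per mouse. The promoter that drives Cre is not given in the sources used here. Virus of this serotype mainly reaches hepatocytes, whereas the 35 genes mark other cells.

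Kupffer cells are the resident macrophages of the liver. They sit in the sinusoids, where they take up particles, old red cells and complement-coated material, and they depend on signals through the receptor encoded by Csf1r. Monocytes, dendritic cells, lymphocytes and neutrophils enter with the blood. MHC class II molecules present peptides to CD4 T cells and are made by dendritic cells, B cells and some macrophages, under the control of the coactivator encoded by Ciita.

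Total counts ran from 47659122 to 56147667 per library. Stk11 was at 22.1, 14.4 and 11.4 CPM (read counts scaled to the size of each library) in KO 1, 2 and 3 and at 66.1, 64.2 and 69.7 CPM in WT 1, 2 and 3, in the direction of the labels. Replicate 1 of each group had 42472 (KO) and 29243 (WT) counts of Xist, the RNA of the inactive X chromosome, and at most 6 counts over 4 Y-linked genes. The other 4 libraries had at most 16 Xist counts and 6146 to 8199 Y-linked counts. The labels do not give this state. Results are therefore given over all 6 libraries, over the 4 libraries other than replicate 1 (called the Y-linked set, 2 against 2), and as a ratio of KO 1 to WT 1 (called the Xist pair), which is 1 library against 1 with no replicate check. The hepatocyte markers Alb, Apoa1, Apoa2, Ttr, Serpina1a, Fgb and Hnf4a were all detected, with a summed level of 21000 to 67200 CPM in KO and 81200 to 122000 CPM in WT.

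Upstream sequences are shown for genes whose levels moved together or differed between the Xist pair and the Y-linked set. Of the 35 members 27 had an entry in the RefSeq promoter table for build GRCm38.p6. The first 2 sequences are the 150 bases before the start of H2-Aa (chr17:34287824-34287973, minus strand) and of H2-Eb1 (chr17:34305717-34305866, plus strand), which encode the alpha chain of I-A and the beta chain of I-E, the mouse class II molecules. The third is the same window of Vsig4 (chrX:96293439-96293588, minus strand), a complement receptor of Kupffer cells.
H2-Aa: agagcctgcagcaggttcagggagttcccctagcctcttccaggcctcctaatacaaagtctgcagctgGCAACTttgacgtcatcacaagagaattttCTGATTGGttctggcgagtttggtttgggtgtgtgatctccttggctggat
H2-Eb1: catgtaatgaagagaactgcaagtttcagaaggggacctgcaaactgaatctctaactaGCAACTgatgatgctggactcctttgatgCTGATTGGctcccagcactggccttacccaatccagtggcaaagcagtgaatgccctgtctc
Vsig4: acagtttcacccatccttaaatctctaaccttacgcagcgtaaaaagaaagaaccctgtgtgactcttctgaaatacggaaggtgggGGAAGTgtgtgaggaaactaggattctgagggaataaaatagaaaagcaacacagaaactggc
Capitals mark the motifs GCAACT and CTGATTGG in the class II genes and GGAAGT in Vsig4, each searched on both strands and chosen after the sequences were seen. In textbook terms GCAACT is part of the X box and CTGATTGG the Y box of class II promoters, and GGAAGT holds the core read by ETS factors such as PU.1. GCAACT lay 81 to 76 bases before the start of H2-Aa and 91 to 86 bases before that of H2-Eb1. CTGATTGG lay at 51 to 44 and at 62 to 55 bases. Of 32851 promoter windows of this length 3.16% held CTGATTGG, 5.39% held GCAACT and 0.167% held both. GGAAGT was in the window of 11 of the 27 members and in 13.6% of all windows. These are matches of letters and say nothing of binding.

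None of the 34 tested members passed an adjusted p-value of 0.05 over the 6 libraries in edgeR's quasi-likelihood test, while 3.37% of all 14539 tested genes did (2.15% higher and 1.22% lower in KO). Unadjusted p-values below 0.05 were found for 5 members, against 26.3% of all genes (11.7% lower and 14.6% higher): H2-Aa, H2-Ab1, H2-Eb1 and Cd3e with lower and S100a9 with higher values in KO. Limma voom called 0 members (2.97% of all genes). DESeq2 called 4 (15.8% of all genes), namely H2-Aa, H2-Ab1 and H2-Eb1 as lower and Ccl5 as higher. The smallest adjusted p-value was 0.0684, for S100a9. The groups did not overlap for 3 members, Cd3e and Nkg7 (KO lower) and S100a9 (KO higher), against 32.4% of all tested genes (15.5% lower and 16.9% higher). When KO 1 was left out 18 members passed, against 30.2% of all genes.

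In the Y-linked set 16 of 34 tested members passed, 13 of them lower and 3 higher in KO. In this comparison 33.3% of all 14546 tested genes passed, 16.1% as lower and 17.2% as higher. Folr2, Vsig4, Cd163, Adgre1, Csf1r, C1qa, C1qb, the 4 class II genes and both B cell genes fell. Marco, Ccl5 and S100a9 rose. Both KO libraries lay below both WT libraries for 18 members and above them for 4, against 35.2% and 36.6% of all tested genes (71.7% together). All 4 pan-leukocyte and all 4 monocyte genes missed the threshold. In bulk liver, fewer cells of a type and less RNA per cell cannot be told apart. In the Xist pair KO 1 was above WT 1 for 16 of the 34 members tested over 6 libraries, with a median log2 ratio of -0.05 (on CPM plus 0.1). The median log2 fold change of the members was -0.35 over 6 libraries and -0.53 over the Y-linked set, where the median of all tested genes was 0.01 in both.

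**Figure D1:**
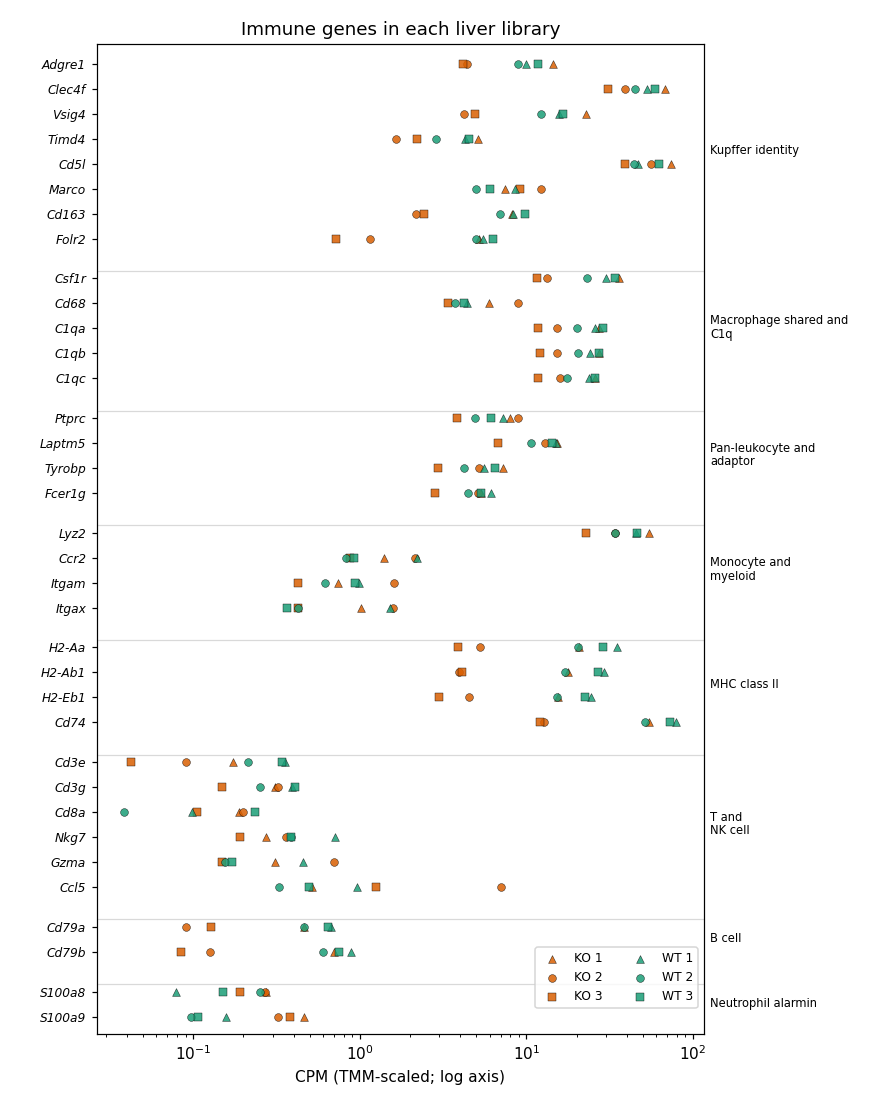
CPM of the 35 genes in each library on a log axis, grouped by class, with KO in orange, WT in green, triangles for replicate 1 (Xist counts), circles for replicate 2 and squares for replicate 3. For most macrophage and all MHC class II genes the orange circle and square lie to the left of the green symbols, and the orange triangle lies among or near them.

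Among the 8 genes of Kupffer cell identity KO 2 and 3 lay below all WT libraries for 6 genes, and KO 1 for none. Against WT 2 and 3 alone the count was also 6, where 35.2% of all tested genes had KO 2 and 3 lower. In WT, per kb of annotated exon, Cd5l and Clec4f were the most abundant of the class, at 25.0 ± 4.88 and 21.1 ± 2.87 CPM per kb (SD, n = 3), and Cd163 the least, at 1.52 ± 0.261. Clec4f, a lectin specific to mouse Kupffer cells, was at 67.7, 38.8 and 31.0 CPM in KO 1, 2 and 3 and at 53.0, 44.7 and 58.8 CPM in WT 1, 2 and 3. KO 2 and 3 lay below, and KO 1 above, every WT library. Its log2 fold change in the Y-linked set was -0.57 ± 0.179 (SE), short of the threshold in edgeR (adjusted p = 0.0581). Without KO 1, with all 3 WT libraries kept, it was -0.58 with an adjusted p-value of 0.0429.

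Vsig4 (chromosome X, 96247203 to 96293438) was at 22.8, 4.23 and 4.88 CPM in KO 1, 2 and 3. WT 1, 2 and 3 had 15.7, 12.2 and 16.6 CPM. The KO libraries thus lay on both sides of the WT range, and the mean was 10.6 ± 10.5 CPM in KO and 14.8 ± 2.30 CPM in WT (SD, n = 3). Within the Y-linked set Vsig4 fell by 1.66 on the log2 scale (edgeR adjusted p = 0.00358), a 3.16-fold difference of means. Adgre1 (chromosome 17, 57358691 to 57483527), which encodes the macrophage antigen F4/80, was at 14.4, 4.39 and 4.18 CPM in KO and at 10.0, 8.91 and 11.7 CPM in WT. Here too KO 2 and 3 lay below and KO 1 above every WT library, and Adgre1 fell by 1.27 on the log2 scale in the Y-linked set (adjusted p = 0.00634).

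Folr2 and Cd163 had the most negative log2 fold changes of the class in the Y-linked set. Folr2, a folate receptor of resident macrophages, was at 5.18, 1.15 and 0.722 CPM in KO 1, 2 and 3 and at 5.48, 5.01 and 6.31 CPM in WT. Only KO 1 reached the WT range. Over the Y-linked set it fell by 2.59 on the log2 scale (SE 0.298, adjusted p = 0.00341). Cd163, which takes up haemoglobin bound to haptoglobin, was at 8.20, 2.16 and 2.44 CPM in KO and at 8.30, 6.90 and 9.75 CPM in WT. It fell by 1.86 on the log2 scale in the Y-linked set (SE 0.230, adjusted p = 0.00423). For both genes KO 1 and WT 1 were nearly equal, with log2 ratios of -0.08 and -0.02.

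Among the remaining Kupffer genes Timd4 also had KO 2 and 3 below, and KO 1 above, every WT library, whereas Cd5l did not. Timd4, a receptor for phosphatidylserine on long-resident Kupffer cells, was at 5.11, 1.64 and 2.19 CPM in KO and at 4.28, 2.87 and 4.51 CPM in WT. Its log2 fold change in the Y-linked set was -0.95 ± 0.307 (SE; adjusted p = 0.0624), and without KO 1 it was -1.03 (adjusted p = 0.041). Cd5l, a secreted protein of macrophages, was at 73.8, 56.1 and 39.1 CPM in KO and at 46.6, 43.9 and 62.3 CPM in WT. The groups overlapped in every comparison with replicates, and the log2 fold change was 0.15 ± 0.253 over 6 libraries and -0.16 ± 0.235 over the Y-linked set.

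Marco, a scavenger receptor for bacteria and particles, went the other way. It was at 7.46, 12.2 and 9.15 CPM in KO 1, 2 and 3 and at 8.50, 5.01 and 6.01 CPM in WT. Between the Y-linked libraries both KO values lay above both WT values, and Marco rose by 0.95 on the log2 scale (SE 0.196, adjusted p = 0.0178). KO 1 lay below WT 1. Within the same 2 KO livers, Kupffer genes thus ranged from a log2 ratio to WT 2 and 3 of -2.19 to 1.14 in KO 2 and of -2.80 to 0.73 in KO 3.

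**Figure D2:**
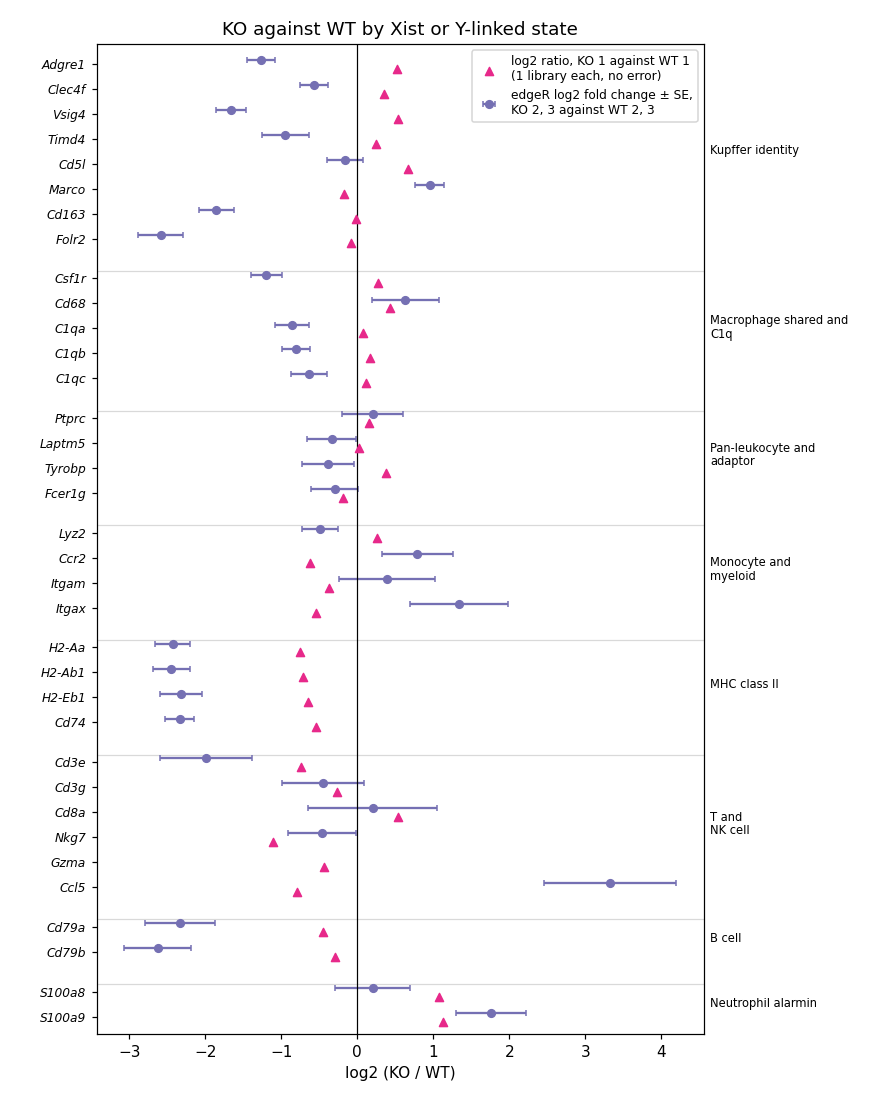
Log2 difference of KO from WT for each gene, with circles and bars for the edgeR log2 fold change ± SE in the Y-linked set and triangles for the ratio of KO 1 to WT 1, which has no error (Gzma was not tested in the Y-linked set). Circles of the class II genes lie between -2.45 and -2.32 and their triangles between -0.75 and -0.54. For Vsig4, Adgre1 and Csf1r the circle is left and the triangle right of 0.

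Csf1r, the receptor for the macrophage growth factors CSF1 and IL-34, was at 36.1, 13.3 and 11.5 CPM in KO and at 29.9, 23.2 and 33.9 CPM in WT. KO 1 was the highest of the 6 libraries and KO 2 and 3 were the lowest. Among the Y-linked libraries it fell by 1.20 on the log2 scale (SE 0.204, adjusted p = 0.0102). Cd68, a lysosomal protein of all macrophages, was at 5.99, 8.86 and 3.40 CPM in KO and at 4.42, 3.70 and 4.23 CPM in WT. KO 1 and 2 were above every WT library and KO 3 below, and its log2 fold change of 0.63 ± 0.441 in the Y-linked set did not pass (adjusted p = 0.319).

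The 3 C1q chains, which start the classical complement pathway and are made in macrophages, had one order of libraries. C1qa was at 27.1, 15.3 and 11.7 CPM in KO and at 25.6, 20.2 and 28.9 CPM in WT. C1qb was at 27.1, 15.2 and 12.0 CPM in KO and at 24.1, 20.5 and 27.1 CPM in WT. C1qc was at 25.7, 16.0 and 11.8 CPM in KO and at 23.7, 17.5 and 25.8 CPM in WT. For all 3 chains KO 2 and 3 lay below every WT library and KO 1 within or at the edge of the WT range. In the Y-linked set C1qa and C1qb fell, with log2 fold changes of -0.86 ± 0.218 and -0.81 ± 0.185 (SE; adjusted p = 0.0322 and 0.0238), and C1qc had -0.64 ± 0.236 (adjusted p = 0.0882).

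Genes of the pan-leukocyte and adaptor class gave no such separation. Ptprc, which encodes CD45, was at 7.96, 8.88 and 3.82 CPM in KO 1, 2 and 3 and at 7.18, 4.94 and 6.14 CPM in WT. Laptm5 was at 15.3, 13.0 and 6.71 CPM in KO and at 15.1, 10.7 and 14.3 CPM in WT. Tyrobp and Fcer1g, adaptors of activating receptors, were at 7.26, 5.22 and 2.95 CPM and at 5.32, 5.10 and 2.82 CPM in KO. Their WT values were 4.24 to 6.44 CPM and 4.44 to 6.09 CPM. KO 3 was the lowest of the 6 libraries for each of the 4 genes, and the other KO libraries lay in or above the WT range. Across the Y-linked set the log2 fold changes ran from -0.39 ± 0.341 for Tyrobp to 0.20 ± 0.396 for Ptprc.

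In the monocyte and myeloid class KO 2 was above KO 3 for all 4 genes. The same held for every gene of the macrophage and C1q, pan-leukocyte, and T and NK cell classes. Lyz2, lysozyme of macrophages and monocytes, was at 54.5, 34.2 and 22.7 CPM in KO and at 45.4, 33.9 and 45.9 CPM in WT. Ccr2, the chemokine receptor of recruited monocytes, was at 1.39, 2.14 and 0.87 CPM in KO and at 2.19, 0.829 and 0.919 CPM in WT. Itgax, which encodes CD11c, was at 1.01, 1.57 and 0.424 CPM in KO and at 1.52, 0.424 and 0.363 CPM in WT. Itgam, which encodes CD11b, was at 0.738, 1.60 and 0.424 CPM in KO and at 0.617 to 0.986 CPM in WT. KO 1 was thus highest for Lyz2, and KO 2 or WT 1 for the other genes, and the groups overlapped over the 6 libraries. Counts of Lyz2, Ccr2 and Itgam were not whole in at least 1 library, so some reads were divided with other genes.

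**Figure D3:**
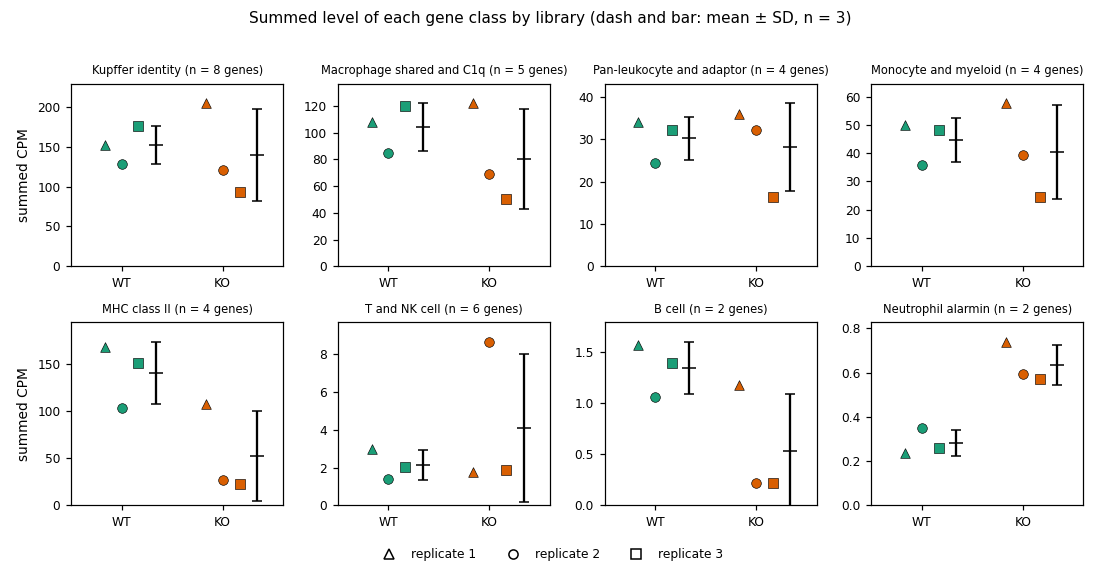
Summed CPM of each class in every library, with WT in green and KO in orange, symbols for replicates 1 to 3, and the mean ± SD (n = 3) as a dash and bar. KO 1 is the highest library for the 2 macrophage classes, the pan-leukocyte class and the monocyte class. KO 2 and 3, at 26.4 and 23.0 CPM, are far below the WT range of 104 to 168 CPM for MHC class II.

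The MHC class II genes differed most evenly. H2-Aa (chromosome 17, 34282744 to 34287823) was at 20.7, 5.28 and 3.88 CPM in KO 1, 2 and 3 and at 34.9, 20.5 and 28.8 CPM in WT. H2-Ab1, the beta chain of I-A (chromosome 17, 34257689 to 34269419), was at 17.7, 3.92 and 4.10 CPM in KO and at 29.3, 17.0 and 26.7 CPM in WT. H2-Eb1 (chromosome 17, 34305867 to 34316674) was at 15.5, 4.50 and 2.99 CPM in KO and at 24.3, 15.2 and 22.3 CPM in WT. For these 3 genes KO 2 and 3 lay below all WT libraries, and KO 1 lay just above WT 2.

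Cd74, the invariant chain that escorts class II molecules, was the most abundant member per kb of exon in WT, at 40.5 ± 8.62 CPM per kb (SD, n = 3). It was at 54.4, 12.7 and 12.1 CPM in KO and at 79.4, 51.8 and 73.0 CPM in WT, again with KO 2 and 3 below all WT libraries and KO 1 just above WT 2. Over the 6 libraries the log2 fold changes were -1.49 ± 0.621 for H2-Aa, -1.50 ± 0.609 for H2-Ab1, -1.42 ± 0.591 for H2-Eb1 and -1.37 ± 0.598 for Cd74 (SE). Their adjusted p-values in edgeR ran from 0.177 to 0.203. In the Y-linked set all 4 genes fell, with log2 fold changes of -2.43 ± 0.232, -2.45 ± 0.241, -2.32 ± 0.274 and -2.34 ± 0.186 (SE; adjusted p = 0.00118 to 0.00371). WT levels there were 5.38, 5.45, 4.99 and 5.04 times those of KO. KO 1 was below WT 1 for all 4, with log2 ratios from -0.75 to -0.54. With a term for the Xist or Y-linked state added over the 6 libraries, H2-Aa, H2-Ab1 and Cd74 passed (adjusted p = 0.042, 0.044 and 0.0493), against 10.3% of all genes.

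The class II pathway list held 15 further genes, of which 14 were tested. None passed over the 6 libraries and 1 had an unadjusted p-value under 0.05, against 26.3% of all tested genes. That gene was Ciita, at 1.06, 0.27 and 0.297 CPM in KO and at 1.95, 1.1 and 1.3 CPM in WT, with every KO library below every WT library and a log2 fold change of -1.40 ± 0.590 (adjusted p = 0.189). Within the Y-linked set 4 of the 14 fell and 0 rose: Ciita by 2.08, H2-DMa by 1.62, H2-DMb1 by 1.63 and H2-Ob by 3.02 on the log2 scale (adjusted p = 0.00814 to 0.0198). H2-DMa, H2-DMb1 and H2-Ob, which encode chains that load or edit class II peptides, are named after their values were seen. Ctss, which encodes a protease that trims the invariant chain, was at 27.4, 30.0 and 16.9 CPM in KO and at 23.5, 18.0 and 26.4 CPM in WT, and is likewise named after its values were seen. The list's median log2 fold change was -0.16 in the Y-linked set, where 16.1% of all tested genes fell and 17.2% rose.

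**Figure D4:**
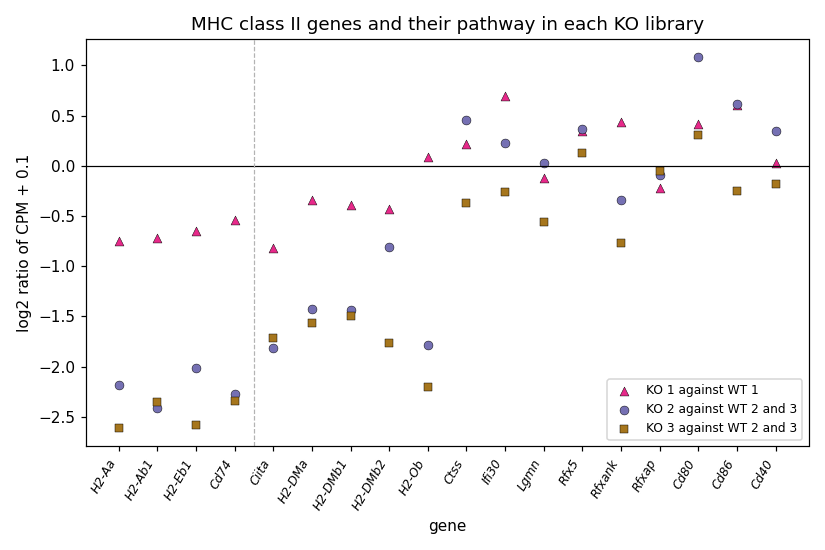
Log2 ratio of CPM plus 0.1 for the 4 class II genes (left of the dashed line) and the 14 tested pathway genes, with triangles for KO 1 against WT 1, circles for KO 2 and squares for KO 3, each against the mean log2 value of WT 2 and 3. From H2-Aa to H2-Ob the circles and squares lie below 0, and from Ctss onward the symbols scatter around 0.

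The B cell genes and all T and NK cell genes but Ccl5 had at most 45 counts in any library, where 3 counts correspond to 0.0515 to 0.0641 CPM. The B cell receptor components Cd79a and Cd79b had 27, 5 and 6 and 41, 7 and 4 counts in KO 1, 2 and 3. WT 1, 2 and 3 had 34, 24 and 30 counts of Cd79a and 45, 31 and 35 counts of Cd79b. KO 2 and 3 were thus low and KO 1 was within the WT range. In the Y-linked set Cd79a and Cd79b fell, with log2 fold changes of -2.33 ± 0.460 and -2.63 ± 0.436 (SE; edgeR adjusted p = 0.0156 and 0.00947). Of 9 tested genes of a further list of 12 B and plasma cell genes, 0 passed over the 6 libraries and 1 had an unadjusted p-value under 0.05, Ighm, the heavy chain of IgM. Ighm was at 3.24, 0.558 and 0.807 CPM in KO and at 8.10, 5.07 and 3.66 CPM in WT. Over the Y-linked set 4 of the 9 fell. Of all tested genes 26.3% had an unadjusted p-value under 0.05 and 16.1% fell in the Y-linked set.

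Haemoglobin and other blood genes were low in KO 2 and 3, as were the B cell and class II genes. In KO 1 the summed blood, B cell and class II levels each lay within the WT range. Within WT the blood sum was lowest in WT 1, where the class II sum was highest. The summed level of the 8 blood genes was 256, 42.2 and 58.7 CPM in KO 1, 2 and 3 and 188 to 433 CPM in WT. Between the Y-linked libraries 6 of 6 tested blood genes fell, with a median log2 fold change of -2.86, against 16.1% of all tested genes. None of the 8 genes was at 0 in every library. The part of blood content in the lower B cell and class II levels was not tested.

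Among T and NK cell genes Cd3e, a chain of the T cell receptor complex, had 10, 5 and 2 counts in KO and 18, 11 and 16 in WT. KO lay below WT without overlap, with a log2 fold change of -1.53 ± 0.554 over 6 libraries (adjusted p = 0.146) and -1.99 ± 0.608 over the Y-linked set (adjusted p = 0.0541). Without KO 1 it passed, at -2.13 (adjusted p = 0.036). Cd3g of the same complex had 18, 18 and 7 counts in KO and 13 to 20 in WT, so the groups overlapped. Nkg7, a granule protein of cytotoxic cells, had 16, 20 and 9 counts in KO and 36, 20 and 18 in WT. At the same count of 20, KO 2 had the lower CPM because its library was scaled as larger, and the separation of the groups rests on that. Gzma, granzyme A, had 18, 39 and 7 counts in KO and 23, 8 and 8 in WT.

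Ccl5, a chemokine of T cells, NK cells and activated macrophages, was at 0.515, 6.99 and 1.25 CPM in KO 1, 2 and 3 and at 0.966, 0.328 and 0.492 CPM in WT. KO 2 stood far above all other libraries, KO 3 came next, and KO 1 lay within the WT range. Among the Y-linked libraries Ccl5 rose by 3.33 on the log2 scale (SE 0.869, adjusted p = 0.0351). Over the 6 libraries its log2 fold change was 2.29 ± 0.973 (adjusted p = 0.193), and leaving out 1 library at a time gave values from 0.56 to 2.82. Of 12 tested genes in a further list of T and NK cell genes 0 passed over the 6 libraries. An unadjusted p-value under 0.05 was found for 3 of them, against 26.3% of all tested genes. Zap70, a kinase of the T cell receptor, had the smallest adjusted p-value, with 11.3, 6.63 and 8.98 CPM in KO and 4.87, 3.05 and 3.25 CPM in WT (adjusted p = 0.0566). Cd3e was at only 0.0424 to 0.355 CPM, and which cells the Zap70 RNA came from was not tested. The list's median log2 fold change was -0.64 over the 6 libraries and -0.28 in the Y-linked set. There 2 of 12 genes rose and 3 fell, against 17.2% and 16.1% of all tested genes.

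The neutrophil proteins S100a8 and S100a9 form the heterodimer calprotectin. S100a9 had 27, 18 and 18 counts in KO and 8, 5 and 5 in WT, or 0.390 ± 0.0699 against 0.120 ± 0.0328 CPM (SD, n = 3). Every KO library was above every WT library, in both states. Its log2 fold change was 1.68 ± 0.403 over 6 libraries (adjusted p = 0.0684), 1.76 ± 0.456 over the Y-linked set (adjusted p = 0.0342) and 1.68 with the state as a term (adjusted p = 0.0394). S100a8 had 16, 15 and 9 counts in KO and 4, 13 and 7 in WT, and the groups overlapped. Of 13 other neutrophil genes 3 had enough counts to be tested, and Ly6g, a defining marker of mouse neutrophils, had 0 counts in every library. Mmp9 had the smallest adjusted p-value of the 3, at 0.0858, 0.036 and 0.0849 CPM in KO and 0.394, 0.212 and 0.449 CPM in WT (adjusted p = 0.0636). Its KO values were near the level of 3 counts, which is 0.0515, 0.054 and 0.0637 CPM in KO 1, 2 and 3.

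Whether KO differed from WT by unequal amounts in the Xist pair and the Y-linked set was tested with an interaction term over the 6 libraries. The state cannot be told apart from other properties of KO 1 and WT 1. KO 1 had the most Stk11 of the KO libraries. Its hepatocyte marker sum was 67200 CPM, against 21000 and 31200 CPM in KO 2 and 3. Its log2 CPM correlated at 0.968 with WT 1, 0.943 with KO 2 and 0.959 with KO 3. The part of these properties in the interaction was not tested. The fit has 2 residual degrees of freedom, all from the Y-linked set, so the single KO and WT libraries of the Xist pair are assumed to vary like the others. Vsig4, Adgre1 and Cd74 passed, with interaction coefficients of 2.20 ± 0.315, 1.79 ± 0.298 and 1.79 ± 0.310 (log2, SE) and adjusted p-values of 0.0306, 0.0452 and 0.04998 in edgeR. Among all tested genes 2.9% passed, 1.71% with a positive coefficient. A positive coefficient means that KO was higher, relative to WT, in the Xist pair. For Vsig4 and Adgre1 the 2 states had opposite directions, and for Cd74 both were lower in KO. The unadjusted interaction p-value was below 0.05 for 16 of 34 members and for 20.9% of all genes. No member passed when WT 2 or WT 3 was left out (0.587% and 0.446% of all genes), and 20 and 18 passed without KO 2 and KO 3 (19.9% and 31.2%), each in a fit with 1 residual degree of freedom.

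Other macrophage genes gave a mixed picture. Of 20 further Kupffer genes 0 passed over the 6 libraries and 4 had an unadjusted p-value under 0.05. Hmox1, which breaks down haem and is also made in hepatocytes, had the smallest adjusted p-value, with 15.1, 29.8 and 27.6 CPM in KO and 10.6, 10.6 and 11.2 CPM in WT (adjusted p = 0.0566). Across the Y-linked set 7 of the 20 fell and 2 rose, and the median log2 fold change was -0.24. Among all tested genes 26.3% had an unadjusted p-value under 0.05, and in the Y-linked set 16.1% fell and 17.2% rose. Of 15 transcription and growth factors of macrophages 0 passed and 3 had an unadjusted p-value under 0.05. Maf had the smallest adjusted p-value among them, at 11.7 ± 4.30 CPM in KO and 20.0 ± 4.72 CPM in WT (SD, n = 3; adjusted p = 0.156). Csf1, a ligand of the Csf1r receptor and named after its values were seen, was at 7.62, 11.6 and 9.30 CPM in KO and at 10.0, 5.90 and 6.74 CPM in WT. It rose by 0.72 on the log2 scale in the Y-linked set (adjusted p = 0.0253), where Csf1r fell.

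Genes of monocytes and recruited macrophages had median log2 ratios of 0.05 in KO 1, 0.42 in KO 2 and 0.25 in KO 3. Of 17 tested genes 0 passed over the 6 libraries and 6 had an unadjusted p-value under 0.05, against 26.3% of all tested genes. In the Y-linked set 7 of 18 rose and 1 fell, against 17.2% and 16.1% of all tested genes. Cd9, a tetraspanin, had the smallest adjusted p-value, at 27.8, 50.4 and 27.1 CPM in KO and 14.8, 16.5 and 13.6 CPM in WT (adjusted p = 0.0543). Ly6c2, Chil3 and Gpnmb are named after their values were seen, and were picked from the genes that were high in KO 2 and 3. The gene that fell is not among them. Lyz2, Ccr2, Itgam and Itgax of the monocyte and myeloid class missed the threshold in the Y-linked set. Ly6c2, a marker of classical monocytes, was at 0.172, 8.28 and 1.42 CPM in KO and at 0.231 to 0.552 CPM in WT. Chil3 was at 0.103, 11.8 and 3.44 CPM in KO and at most 0.118 CPM in WT, and Gpnmb at 0.549, 6.45 and 0.849 CPM in KO and at most 0.237 CPM in WT. For these 3 genes, as for Ccl5, KO 2 was the highest and KO 3 the next.

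The interferon response list had the largest median log2 fold change of the lists in the Y-linked set. Its 16 genes summed to 423, 3920 and 2030 CPM in KO 1, 2 and 3 and to 288 to 356 CPM in WT. None of the 16 passed over the 6 libraries, and 15 had an unadjusted p-value under 0.05, against 26.3% of all tested genes. In the Y-linked set all 16 rose, with a median log2 fold change of 4.00, against 17.2% of all tested genes. Ifit1, an interferon-induced RNA-binding protein, was at 24.1, 288 and 209 CPM in KO and at 13.3, 8.58 and 9.71 CPM in WT (adjusted p = 0.0525 over 6 libraries). In KO 2 and 3, where these levels were high, Ccl5, Ly6c2 and Chil3 were high too, and the summed Kupffer and class II levels were below all WT libraries. The part of the interferon response in those differences was not tested.

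The remaining lists held no gene that passed over the 6 libraries. Of all tested genes 26.3% had an unadjusted p-value under 0.05, and 17.2% rose and 16.1% fell in the Y-linked set. Of 12 MHC class I pathway genes 1 had an unadjusted p-value under 0.05, Tapbp, at 151 ± 64.3 against 81.9 ± 10.8 CPM (SD, n = 3; adjusted p = 0.142), and 2 rose and 0 fell in the Y-linked set. Of 12 tested chemokine genes 6 had an unadjusted p-value under 0.05, with Ccl4 closest to the threshold at 0.206, 0.648 and 0.233 CPM in KO and at most 0.0428 CPM in WT (adjusted p = 0.0544). Its WT values were below the level of 3 counts. Of 13 tested cytokine and sensor genes 6 had an unadjusted p-value under 0.05, with Il1b closest at 1.06 ± 0.554 against 2.95 ± 0.669 CPM (adjusted p = 0.0933). Of 11 tested dendritic cell genes 2 did, with the interferon-inducible Bst2 closest at 330 ± 221 against 105 ± 3.76 CPM (adjusted p = 0.0932). Of 13 complement receptor and regulator genes 4 did, with C1ra, which hepatocytes also make, closest at 155 ± 49.3 against 370 ± 56.2 CPM (adjusted p = 0.0566). In the Y-linked set 3 of 12 chemokine genes rose and 4 fell, and 2 of 13 cytokine and sensor genes rose and 1 fell. Of 8 dendritic cell genes tested there 1 rose and 1 fell, and of 13 complement genes 0 rose and 3 fell.

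**Figure D5:**
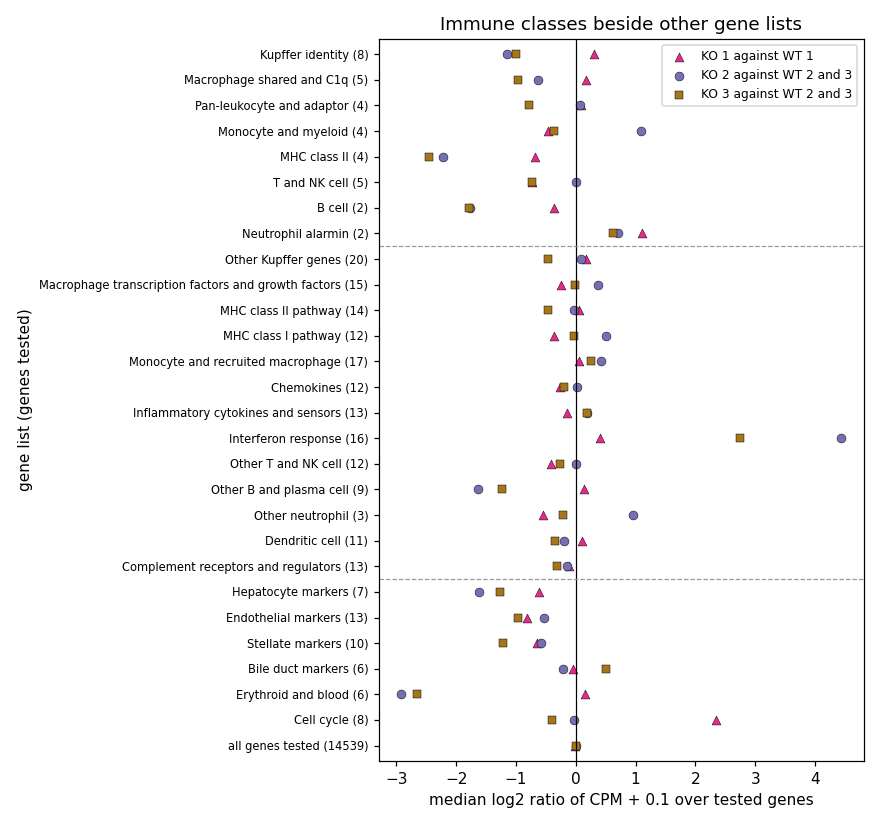
Median log2 ratio of each gene list in KO 1 against WT 1 (triangles) and in KO 2 (circles) and KO 3 (squares) against WT 2 and 3, on CPM plus 0.1, with the 8 immune classes above the upper dashed line, further immune lists below it and other cell types under the lower line. KO 2 and 3 are lowest for blood, MHC class II and B cell genes and highest for the interferon list, at 4.44 and 2.75.

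Summed endothelial markers were lower in each KO library than in any WT library, while summed stellate cell markers overlapped between the groups. None passed over the 6 libraries, and 11 endothelial and 0 stellate genes had an unadjusted p-value under 0.05, against 26.3% of all tested genes. Within the Y-linked set 11 of 13 endothelial genes fell (median log2 fold change -0.70) and 5 of 10 stellate cell genes fell (median -0.83). Of all tested genes 16.1% fell there. Summed endothelial levels were 180 to 272 CPM in KO and 332 to 444 CPM in WT. Unlike the Kupffer class, both lists were lower in the Xist pair as well, with median log2 ratios of -0.81 and -0.65 against 0.30 for the Kupffer class. That contrast between lists was not tested. Cell cycle genes were high in KO 1, at a summed 93.3 CPM against 27.6 to 52.9 CPM in the other 5 libraries, so the library with the highest macrophage levels was also the one with the highest cell cycle levels. Their part in the macrophage levels was not tested.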

How the data were processed

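Poly(A) RNA of the left liver lobe of 6 mice was measured, 1 library each, 3 KO and 3 WT by sample title. The authors deposited 1 table of expected counts (estimated read counts per gene). Per the submitters' processing notes, bcl2fastq 2.17, cutadapt 1.18, STAR 2.7.0f and RSEM 1.3.1 were used, and build mm9 is named. All 55450 gene identifiers, versions included, were found in GENCODE M21 (GRCm38), from which positions and exon lengths were taken. Whether strand was used is not given in the sources used here, so counts of the 7 members that overlap another annotated gene are less certain.

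Expected counts were rounded and filtered with filterByExpr (14539 genes kept), scaled by TMM and compared with the quasi-likelihood test of edgeR 4.0.16 (R 4.3.3) with the group as the only term. P-values were adjusted by Benjamini-Hochberg over all genes tested, at 0.05. The SE is the log2 fold change divided by the square root of the F statistic. CPM use TMM-scaled sizes. Log2 ratios of single libraries add 0.1 CPM. Alternatives were RLE size factors, library size alone, no filter, limma voom 3.58.1, DESeq2 1.42.0, a replicate block, a term for the Xist or Y-linked state, the Y-linked set, and leaving out each library. The fits were also run on simulated counts, which were simpler than these data, so that run is no check of the results given here.

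Members, lists and tests were chosen with earlier results of these data known. All members are accounted for. Of each further immune list every gene past the threshold, or otherwise the gene with the smallest adjusted p-value, is named, and the lists of other cell types are given by counts and sums alone. Exceptions are said where they occur. The transferrin symbol Tf of the hepatocyte list had no row. No library repeated another, since the closest pair differed at 20015 genes. At 47659122 to 56147667 counts per library, 3 counts correspond to at most 0.0641 CPM. Counting error is thus small for the macrophage and class II genes and larger for most lymphocyte and neutrophil genes.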

Additional observations from a re-analysis of the deposited data

Results flagged for a closer look

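For 4 genes named above KO differed from WT by unequal amounts in the Xist pair and the Y-linked set, by edgeR's interaction test over all 14539 genes. The coefficients (log2, Xist pair minus Y-linked set) were 1.79 for Adgre1 (adjusted p = 0.0452), 2.20 for Vsig4 (adjusted p = 0.0306), 1.79 for Cd74 (adjusted p = 0.04998) and -3.91 for Ifit1 (adjusted p = 0.00836). The Xist pair is 1 library against 1 and the residual spread comes from the Y-linked set alone. No member passed when WT 2 or WT 3 was left out, and the state cannot be told apart from other properties of KO 1 and WT 1.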

How the results depend on the processing

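The number of members that passed over 6 libraries was 0. It was 4 with DESeq2, 4 with a term for the Xist or Y-linked state and 16 in the Y-linked set. It was 0 to 18 when 1 library was left out, with 18 without KO 1 and a background then of 30.2% of genes. The count over all genes, 490, became 4847 in the Y-linked set, 2290 with DESeq2, 1504 with the state term, 771 with no filter and 105 with the replicate block, and 6 to 4473 when 1 library was left out. Replicate numbers come from titles alone, and the labels do not say whether they pair animals. Deviations of same-numbered libraries correlated at 0.18, 0.04 and 0.07, which cannot decide this with 3 libraries per group. With the replicate block 0 members passed.

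Alternatives for the interaction were added after seeing the data. Its 3 member calls (2.9% of all genes) became 10 with DESeq2 (6.77%), 1 with library size alone (2.74%) and 14 with no filter (6.78%). They became 0 to 20 when a Y-linked library was left out, with 0 without WT 2 or WT 3 (0.587% and 0.446%), 20 without KO 2 (19.9%) and 18 without KO 3 (31.2%). The B cell median of -1.31 was -2.48 in the Y-linked set, and -2.61 to -0.92 when 1 library was left out. The neutrophil median of 1.14 was 0.98 in the Y-linked set, and 1.02 to 1.32 when 1 library was left out. With 1 library left out, the Kupffer median of -0.40 ran from -1.14 to -0.08, that of the macrophage and C1q class (-0.40) from -0.82 to -0.18 and that of class II (-1.46) from -2.54 to -1.08. Those of the pan-leukocyte (-0.13, range -0.41 to 0.14) and monocyte classes (0.14, range -0.15 to 0.49) changed sign, and that of the T and NK class (-0.41) ran from -0.61 to -0.14. The cause of these shifts was not tested.

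Direction changed for Cd5l in the Y-linked set (-0.16) and for Itgam with limma voom (-0.03) and the block (-0.05). With 1 library left out, log2 fold changes that changed sign ran from -0.58 to 0.03 for Clec4f, -0.10 to 0.35 for Cd5l, -0.03 to 0.47 for Ptprc, -0.44 to 0.08 for Laptm5, -0.41 to 0.21 for Tyrobp, -0.56 to 0.09 for Lyz2, -0.20 to 0.74 for Ccr2, -0.53 to 0.47 for Itgam, -0.08 to 1.34 for Itgax and -0.16 to 1.24 for Gzma. None of these passed over 6 libraries in edgeR. Low counts limit the lymphocyte and neutrophil genes.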
